A study of Mus musculus with 16 samples.

Results

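The genes described here encode the mouse insulin-like growth factor (IGF) system: the ligand Igf1, the receptors Igf1r and Igf2r, the adaptor Irs1 and the binding proteins Igfbp2, Igfbp3, Igfbp4, Igfbp5, Igfbp6 and Igfbp7. They were taken from the deposited expression table by gene symbol, and all 10 were found among its 31053 genes. The table covers 16 samples of C2C12, a mouse myoblast line that fuses into myotubes in culture. Myoblasts and myotubes of 2 genotypes, WT and Fam134b KO, gave 4 groups of 4 samples. FAM134B is an ER-phagy receptor, a membrane protein that brings pieces of the endoplasmic reticulum to autophagosomes. The KO line was made with a lentiviral CRISPR-Cas9 vector carrying a pair of guides, and the transduced cells were then selected with antibiotics. The methods do not say whether the line is a clone. All groups were grown in DMEM with 10% FBS, and myotubes formed spontaneously once the cells were confluent. The methods describe biological replicates as independent for experiments in general, but the labels of these samples name no separate cultures, so the p-values below measure the spread between these samples, which may in part be technical.

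IGF ligands bind the tyrosine kinase receptor encoded by Igf1r, which phosphorylates adaptors such as Irs1 and so starts the PI3K-Akt and Ras-MAPK cascades. The product of Igf2r has no kinase, and it takes IGF2 and mannose-6-phosphate-tagged lysosomal enzymes into the cell for sorting to lysosomes. Secreted IGF binding proteins hold the ligands in the medium or at the matrix, and proteases that cut them release the ligands again. In skeletal muscle, IGF signalling is known for its part in both myoblast proliferation and differentiation, and in fibre growth.

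The samples of WT myoblasts, WT myotubes and KO myoblasts held 2686680 to 3287461 gene-assigned reads each, and those of the KO myotubes 1484750 to 2947336. A gene is given below as its normalized count, the read count divided by a factor of the sample, and 3 reads, taken as the smallest detected level, were worth a normalized count of 2.49 to 5.99. Replicates 2 and 4 of the Fam134b KO myotubes held 1790524 and 1484750 reads, and results were also computed without them. Log2 values correlated between replicates with r of 0.879 to 0.950 in Fam134b KO myotubes and of 0.927 to 0.984 in the other groups. Fam134b itself had normalized counts of 146 to 287 over the 8 WT samples, against 23.4 to 35.6 in KO myoblasts and 28.0 to 56.9 in KO myotubes. The log2 fold change of KO against WT was −2.86 in myoblasts and −2.46 in myotubes (limma, adjusted p = 2.95e-08 and 9.85e-07), so the genotype labels held in every library.

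Markers of muscle differentiation also differed between the genotypes. The summed normalized count of 6 myotube markers (Myog, Myh3, Actc1, Ckm, Tnnt3 and Acta1) was 630 to 1059 before and 14218 to 20326 after differentiation of WT cells, against 8.34 to 16.6 in KO myoblasts and 7774 to 10790 in KO myotubes. All 6 were higher in myotubes of either genotype, where 13.8% of all genes were in WT and 17.3% in KO cells. All 6 were lower in KO than in WT myoblasts and 3 of the 6 in myotubes, where 8.50% and 13.7% of all genes were lower. The 4 myoblast markers (Myod1, Myf5, Des and Cdh15) summed to 1002 to 1482, 2695 to 3226, 262 to 366 and 889 to 1192 in the same order of groups. Among them Myf5 was at 107 to 118 in KO and 59.8 to 82.0 in WT myoblasts, with no overlap and no call (log2 0.68 ± 0.27, SE, limma adjusted p = 0.0955), and it fell in KO differentiation (log2 −0.92, limma adjusted p = 0.0119). The 6 genes of a fibroblast list, which holds the collagen genes Col1a1 and Col1a2, summed to 3200 to 5958, 11472 to 20138, 5388 to 16964 and 15210 to 31749. Of the 4 genes of that list that were tested, 2 were called higher in KO than in WT myoblasts and 2 in myotubes, where 7.26% and 9.74% of all genes were. The contrast of single genes changed with stage. Col1a1 had means of 3078 in WT and 7156 in KO myoblasts, and 12652 and 17938 in myotubes. For Dcn the means were 1.16 and 2.36 in myoblasts, and 53.1 and 144 in myotubes. For Col1a2 they were 1213 in WT and 3728 in KO myoblasts, and 2731 and 5353 in myotubes. For Pdgfra they were 4.73 and 6.59 in myoblasts, and 7.31 and 9.35 in myotubes. Lum and Thy1 held at most 3 reads in any sample. A list of 5 adipocyte markers summed to 72.0 to 91.1, 108 to 198, 117 to 160 and 207 to 449, with Adipoq and Plin1 at 0 reads throughout. Within it Lpl had means of 9.56, 85.2, 81.1 and 258 in the same order. Cebpa went the other way between the genotypes, with 70.5, 49.1, 60.7 and 44.2, and Fabp4 held at most 1 read in any sample. Endothelial, immune and glial lists reached at most 1.94, 24.2 and 9.96 in any sample, and Ptprc and Sox10 had 0 reads. How far these differences in marker levels account for those of the IGF genes was not tested. In samples of this kind, fewer cells of a type and less RNA per cell cannot be told apart.

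Most of the 10 IGF genes moved with differentiation, and in only 1 direction. In WT cells, 6 of the 10 were higher in myotubes than in myoblasts and none was lower (limma, Benjamini-Hochberg adjusted p under 0.05), where 23.0% of the 10767 genes tested were called, 13.8% higher and 9.16% lower. In Fam134b KO cells, 7 were higher and none was lower, with 33.4% of all genes called and 17.3% higher. All 10 passed the minimum for testing, a normalized count of 10 in at least 4 samples, but Igfbp3 did so through the myotubes alone, so that it had to differ if it was to be tested. The median log2 fold change of the 10 genes on differentiation was 1.09 in WT and 1.36 in KO cells, against −0.01 and −0.02 over all genes tested. Myoblasts and myotubes did not overlap for 7 of the 10 genes in WT and for 7 in KO cells, compared with 28.0% and 27.4% of all genes. With quantile normalization, the share of higher genes among all genes called in WT cells was 49.7% instead of 60.1%, while the counts of IGF genes were the same under equal totals, quantile and median-ratio scaling.

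Between genotypes, the IGF genes split in both directions. In myoblasts, Igf1, Irs1 and Igfbp4 were higher in Fam134b KO than in WT samples, and Igfbp2 and Igfbp5 were lower, 5 of 10 where 15.8% of all genes were called (7.26% higher and 8.50% lower). In myotubes, the same 3 genes were higher, and Igf2r, Igfbp2 and Igfbp5 were lower, 6 of 10 where 23.4% of all genes were called (9.74% higher and 13.7% lower). The groups did not overlap for 5 genes in myoblasts and 6 in myotubes, against 26.8% and 19.4% of all genes. The median log2 fold change of the 10 genes was −0.13 in myoblasts and −0.34 in myotubes, with −0.01 and −0.07 over all genes. Without the 2 shallow KO myotube samples the counts were 6 and 7 on differentiation in WT and KO cells, and 6 and 5 between genotypes in myoblasts and myotubes. Over all genes tested, 3286, 3412, 2225 and 2207 were then called in the same order, against 2474, 3591, 1697 and 2521 with every sample. These comparisons share groups with each other, so their values are not independent.

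**Figure D1:**
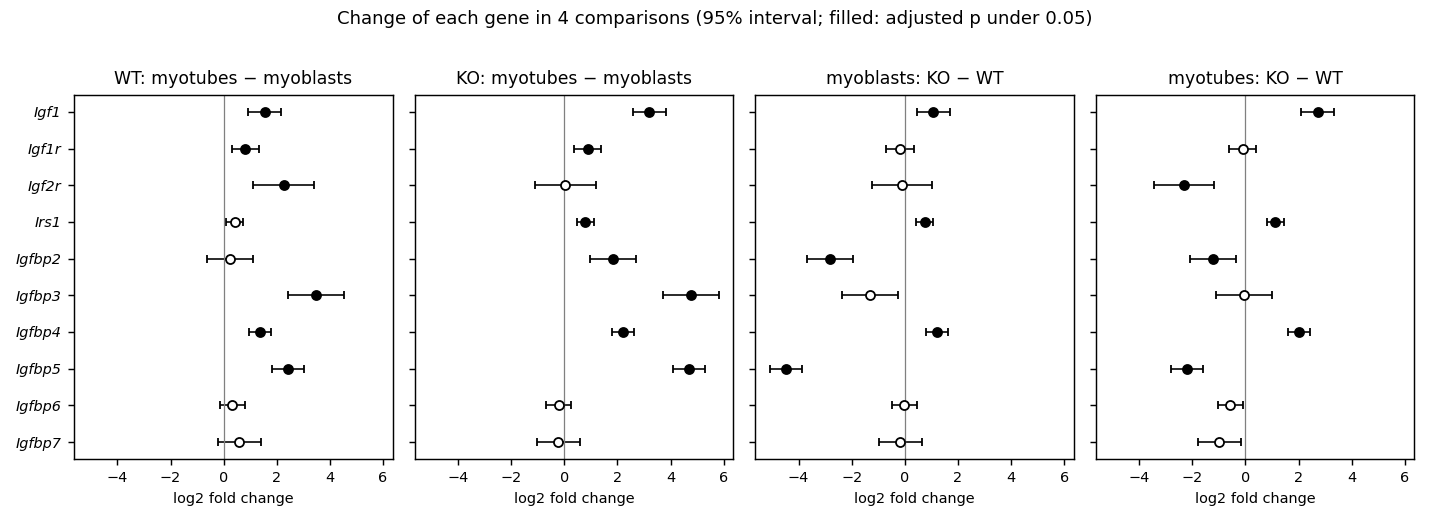
Log2 fold change of each IGF gene (x axis) in 4 comparisons, 1 panel each, with its 95% interval as a horizontal bar; filled points had an adjusted p under 0.05 and open points did not. On differentiation the filled points lie to the right of 0 in both genotypes, while between genotypes Igf1, Irs1 and Igfbp4 lie to the right and Igfbp5 and Igfbp2 to the left.

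Igf1, the secreted ligand (chr10:87858265-87937042, plus strand, GRCm38), was highest in Fam134b KO myotubes. Its normalized counts in replicates 1 to 4 were 8.30, 5.79, 4.00 and 5.35 in WT myoblasts, 18.1, 14.4, 20.4 and 21.8 in WT myotubes, 11.4, 13.3, 20.8 and 9.18 in KO myoblasts, and 161, 104, 127 and 126 in KO myotubes. The KO myotubes stood apart from all other samples, while KO myoblasts and WT myotubes overlapped. Differentiation raised Igf1 by 1.54 ± 0.30 on the log2 scale in WT cells (SE, limma adjusted p = 8.40e-04) and by 3.19 ± 0.30 in KO cells (adjusted p = 4.77e-08). KO myotubes held 6.92 times the mean normalized count of WT myotubes, a log2 fold change of 2.72 ± 0.30 (limma adjusted p = 1.71e-06), and their groups did not overlap (exact two-sided permutation p = 0.0286, the smallest that 4 against 4 samples allow). In myoblasts the difference was 1.07 ± 0.30 (limma adjusted p = 0.0158), on only 4 to 9 reads per WT sample. That call was lost with limma voom on the reads (adjusted p = 0.0717) and without replicate 3 of the WT myoblasts (0.0609) or of the KO myoblasts (0.0796).

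**Figure D2:**
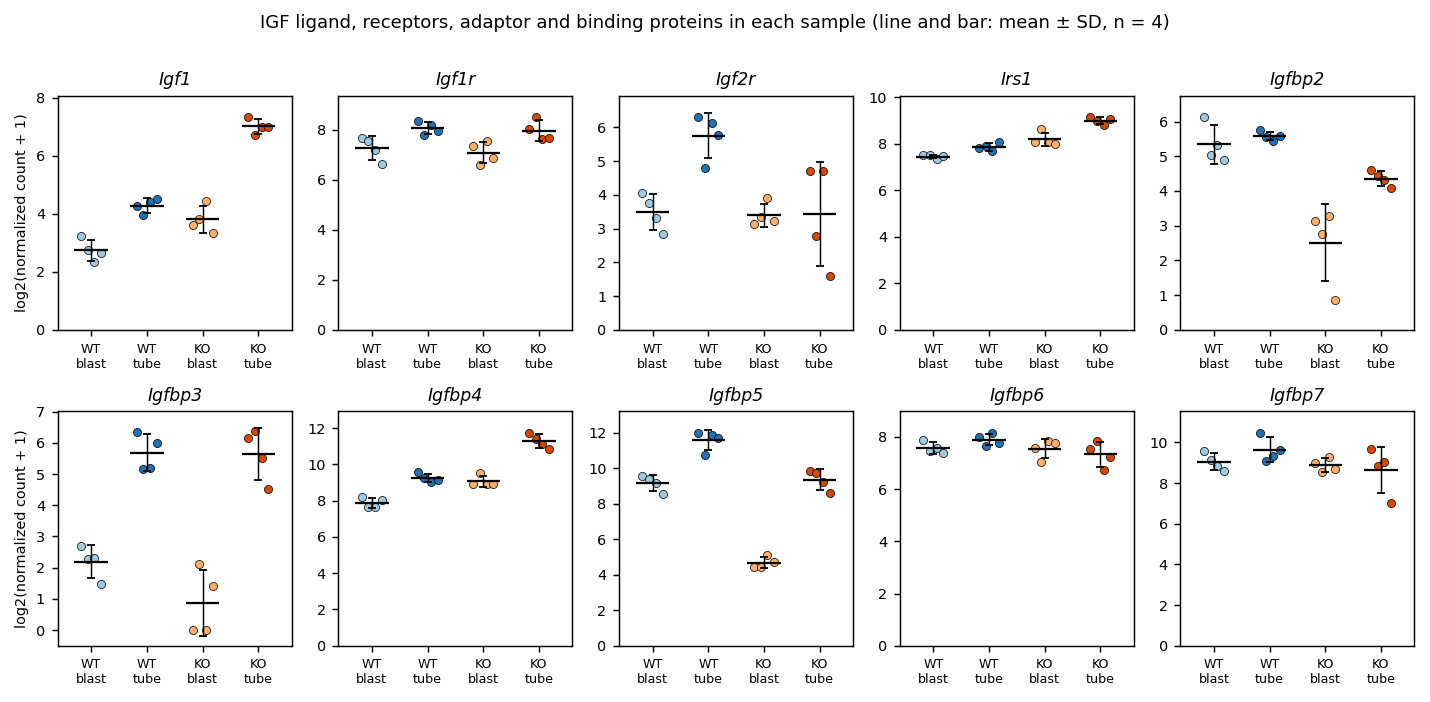
Log2(normalized count + 1) of the 10 IGF genes (y axis, 1 panel per gene) in the 4 samples of each group (x axis); points are samples, the line is the group mean and the bar its SD (n = 4). Igf1 and Igfbp4 are highest in all 4 KO myotube samples, and Igfbp5 is lowest in all 4 KO myoblast samples.

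Of the receptors, Igf1r rose with differentiation in both genotypes, and Igf2r rose in WT cells. Igf1r (chr7:67952827-68233668, plus strand) had normalized counts of 206, 187, 145 and 98.0 in WT myoblasts, 325, 221, 295 and 248 in WT myotubes, 163, 95.5, 185 and 118 in KO myoblasts, and 263, 366, 196 and 206 in KO myotubes. Every myotube sample lay above every myoblast sample of its genotype, and the genotypes overlapped at both stages. The rise was 0.81 ± 0.25 in WT (SE, log2, limma adjusted p = 0.0232) and 0.88 ± 0.25 in KO cells (adjusted p = 0.010), and the difference between these changes was 0.07, with a 95% interval of −0.67 to 0.80. KO differed from WT by −0.17 in myoblasts (95% interval −0.69 to 0.35) and by −0.11 in myotubes (−0.63 to 0.41), with limma adjusted p of 0.722 and 0.798. The WT call was lost when replicate 3 or 4 of the WT myoblasts (limma adjusted p = 0.0599 and 0.108) or replicate 1 or 3 of the WT myotubes (0.0795 and 0.0605) was left out. The KO call was lost with sample weights (0.0589) and without the 2 shallow samples (0.0518).

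Igf2r (chr17:12682406-12769664, minus strand), the IGF2 and mannose-6-phosphate receptor, had normalized counts of 15.7, 12.5, 9.01 and 6.24 in WT myoblasts and 78.6, 27.0, 68.8 and 53.5 in WT myotubes. All WT myotubes were higher than all WT myoblasts, a log2 fold change of 2.25 ± 0.54 (SE, limma adjusted p = 0.00512). In KO myoblasts the values were 7.87, 9.13, 13.9 and 8.34. In KO myotubes they were 25.2, 5.84, 25.2 and 2.0, where the 2 low values, on 4 reads and 1 read, are those of the shallow samples. The change of Igf2r on differentiation in KO cells was 0.04 ± 0.54 (limma adjusted p = 0.960) with all 4 samples and 1.31 without the shallow ones (0.0190). KO myotubes were lower than WT myotubes by −2.31 ± 0.54 on the log2 scale (limma adjusted p = 0.00393), a call that ended without those 2 samples (−1.04, adjusted p = 0.0765). The antisense gene Airn overlaps Igf2r but shares 0 of its exon bases, and it held 1 to 18 reads per sample.

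Irs1 (chr1:82233101-82291416, minus strand), the adaptor that links the activated receptor to PI3K, was higher in KO than in WT samples at both stages. Its normalized counts were 181, 180, 160 and 178 in WT myoblasts, 223, 237, 205 and 272 in WT myotubes, 273, 393, 273 and 256 in KO myoblasts, and 571, 499, 444 and 536 in KO myotubes. The KO samples lay above the WT samples of their stage throughout, by 0.75 ± 0.16 on the log2 scale in myoblasts (SE, limma adjusted p = 0.00169) and by 1.13 ± 0.16 in myotubes (adjusted p = 2.92e-05). On differentiation Irs1 rose by 0.79 ± 0.16 in KO cells (limma adjusted p = 5.99e-04), and the WT value of 0.42 ± 0.16 did not pass the test (0.0623), although it did without replicate 2 of the KO myoblasts (0.0360), with sample weights (0.00190) and with only the 8 WT samples fitted (0.04999). In the annotation, 2822 exon bases of Irs1, 30.9% of the total, are shared with Gm9747 on the opposite strand, which had 0 reads in every sample. Whether reads were counted by strand is not given in the sources used here.

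Igfbp5 showed the widest range of the 10 genes, 6.90 on the log2 scale between its lowest and highest group means. It encodes a secreted binding protein that also attaches to the extracellular matrix and is known to be induced in differentiating myoblasts. The gene lies at chr1:72857932-72874884 on the minus strand. Normalized counts were 750, 683, 583 and 367 in WT myoblasts, 4123, 1710, 3742 and 3331 in WT myotubes, 21.0, 20.8, 33.8 and 25.0 in KO myoblasts, and 928, 868, 599 and 390 in KO myotubes. KO myoblasts were far below every other sample, and KO myotubes lay in the range of the WT myoblasts or above it. KO myoblasts held 4.22% of the WT mean, a log2 fold change of −4.49 ± 0.29 (SE, limma adjusted p = 1.36e-10), and KO myotubes held 21.6%, a change of −2.21 ± 0.29 (adjusted p = 1.40e-05). Differentiation raised Igfbp5 in both genotypes, by 2.41 ± 0.29 in WT (limma adjusted p = 3.41e-06) and by 4.68 ± 0.29 in KO cells (adjusted p = 5.03e-11). KO samples thus started lower, rose by more and ended lower.

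Igfbp2 (chr1:72824503-72852474, plus strand), whose gene ends 5457 bases from that of Igfbp5 on the opposite strand, was also lower in KO cells. Its normalized counts were 69.2, 31.8, 39.0 and 28.5 in WT myoblasts, 52.7, 45.9, 42.8 and 46.6 in WT myotubes, 7.87, 5.81, 8.68 and 0.834 in KO myoblasts, and 23.2, 20.4, 18.9 and 15.99 in KO myotubes. KO and WT samples did not overlap at either stage. The log2 fold change of KO against WT was −2.83 ± 0.41 in myoblasts (SE, limma adjusted p = 3.05e-05) and −1.22 ± 0.41 in myotubes (adjusted p = 0.0358). The myotube call did not hold with a pseudocount of 0.5 (limma adjusted p = 0.0552), with no filter (0.0597), with sample weights (0.110) or without the 2 shallow samples (0.114). It also ended when replicate 1, 2, 3 or 4 of the WT myotubes (limma adjusted p = 0.0731, 0.0601, 0.0645 and 0.0737) or replicate 3 or 4 of the KO myotubes (0.0620 and 0.0718) was left out. Igfbp2 rose on differentiation by 1.84 ± 0.41 in KO cells (limma adjusted p = 0.00175), and the WT value was 0.24 ± 0.41 (0.730). The difference between these changes did not pass the test (limma adjusted p = 0.143). The KO myoblast samples held only 9, 7, 10 and 1 reads, and with 1 sample left out the KO rise ranged from 1.29 to 2.09.

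Igfbp3 (chr11:7206086-7213923, minus strand), the binding protein that carries most of the IGF in blood, was near the floor in myoblasts and detected in all myotubes. Normalized counts were 5.54, 3.86, 4.00 and 1.78 in WT myoblasts, 81.2, 35.1, 35.3 and 63.4 in WT myotubes, 0, 3.32, 0 and 1.67 in KO myoblasts, and 70.7, 81.7, 45.0 and 22.0 in KO myotubes. Myotubes lay above myoblasts in both genotypes and the genotypes overlapped in myotubes. The log2 fold change on differentiation was 3.48 ± 0.51 in WT (SE, limma adjusted p = 4.25e-05) and 4.76 ± 0.51 in KO cells (adjusted p = 3.16e-07). Igfbp3 reached the minimum for testing in 8 samples, all of them myotubes. Both calls therefore depend on the group in which the gene was high, and the p-values are no separate support for the rise. Since the KO myoblasts held 6 reads in all, the KO rise is also given as a ratio of reads scaled for depth, 44.7 with a 95% interval of 20.2 to 123 that covers counting error only. Between genotypes the values were −1.32 ± 0.51 in myoblasts (limma adjusted p = 0.0867) and −0.04 ± 0.51 in myotubes (adjusted p = 0.970, 95% interval −1.09 to 1.02). The myoblast value passed the test without replicate 2 of the KO myoblasts (−1.72, limma adjusted p = 0.0240), with sample weights (5.18e-04) and without the 2 shallow KO myotube samples (0.0466).

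Igfbp4 (chr11:99041244-99054392, plus strand), a binding protein that is cut by the protease PAPP-A, was higher in KO cells at both stages and in myotubes of both genotypes. Its normalized counts were 290, 201, 200 and 258 in WT myoblasts, 768, 602, 523 and 575 in WT myotubes, 486, 739, 479 and 486 in KO myoblasts, and 3453, 2692, 2256 and 1844 in KO myotubes. WT myoblasts were lowest and KO myotubes highest without overlap, and WT myotubes and KO myoblasts overlapped. KO exceeded WT by 1.20 ± 0.20 on the log2 scale in myoblasts (SE, limma adjusted p = 1.61e-04) and by 2.03 ± 0.20 in myotubes (adjusted p = 6.03e-07), 4.15 times the WT mean. Differentiation added 1.38 ± 0.20 in WT (limma adjusted p = 4.25e-05) and 2.21 ± 0.20 in KO cells (adjusted p = 3.09e-08). These 4 calls held in every alternative in which Igfbp4 was tested.

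Igfbp6 and Igfbp7 passed the test in none of the comparisons. Igfbp6 (chr15:102144362-102149511, plus strand), a binding protein that prefers IGF2, had normalized counts of 165 to 235 and 201 to 286 in myoblasts and myotubes of WT cells, and of 129 to 226 and 105 to 226 in those of KO cells. Its groups overlapped in every comparison, and the lowest adjusted p was that of KO against WT myotubes (−0.56 ± 0.22, SE, log2, limma adjusted p = 0.0707). That value passed without replicate 2 of the KO myoblasts (limma adjusted p = 0.0482), without replicate 2 of the KO myotubes (0.0210), without both shallow samples (0.0368) and with sample weights (0.0191). Igfbp7 (chr5:77349240-77408041, minus strand), a related secreted protein with weaker affinity for IGFs, ranged from 391 to 761, 536 to 1426, 370 to 621 and 130 to 815 in the same order, with the lowest value in the shallowest KO myotube sample. KO against WT myotubes gave −0.99 ± 0.39 (SE, log2, limma adjusted p = 0.0728), which passed without replicate 1 of the KO myotubes (−1.33, 0.0167) and fell to −0.28 without the shallow samples (0.573). Igfbp7 shares 85 exon bases, 7.03% of its total, with Polr2b on the opposite strand, which held 19 to 132 reads per sample.

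The change on differentiation differed between the genotypes for Igf1 and Igfbp5, 2 of the 10 genes, where 3.45% of all genes passed the interaction test (1.97% with a larger and 1.48% with a smaller value in KO cells). All 6 myotube markers tested also passed, each with a larger value in KO cells, and their median was 4.08. Of the 4 genes tested in each of the myoblast and fibroblast lists, 1 and 0 passed. For Igfbp5 the KO change exceeded the WT change by 2.27 ± 0.41 on the log2 scale (SE, limma adjusted p = 0.00180), and for Igf1 by 1.65 ± 0.42 (adjusted p = 0.0322). The Igfbp5 difference held in all alternatives. The Igf1 difference was lost with no filter (limma adjusted p = 0.0620) and with limma voom (0.0704). It was also lost without replicate 1 or 2 of the WT myoblasts (limma adjusted p = 0.0751 and 0.0604), replicate 1, 2 or 3 of the WT myotubes (0.0504, 0.0520 and 0.0518), replicate 1 or 4 of the KO myoblasts (0.0736 and 0.0776) or replicate 1 of the KO myotubes (0.0568). For Igfbp4 the difference was 0.83 ± 0.28 (limma adjusted p = 0.116), and it passed without replicate 2 of the KO myoblasts (0.99, 0.0439) and with sample weights (1.02, 0.00726). Igfbp2 had 1.60 ± 0.58 (0.143), Igfbp3 1.28 ± 0.72 (0.367) and Igf2r −2.21 ± 0.77 (0.126), limma adjusted p in brackets. The median over the 10 genes was 0.60, against −0.04 over all genes.

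**Figure D3:**
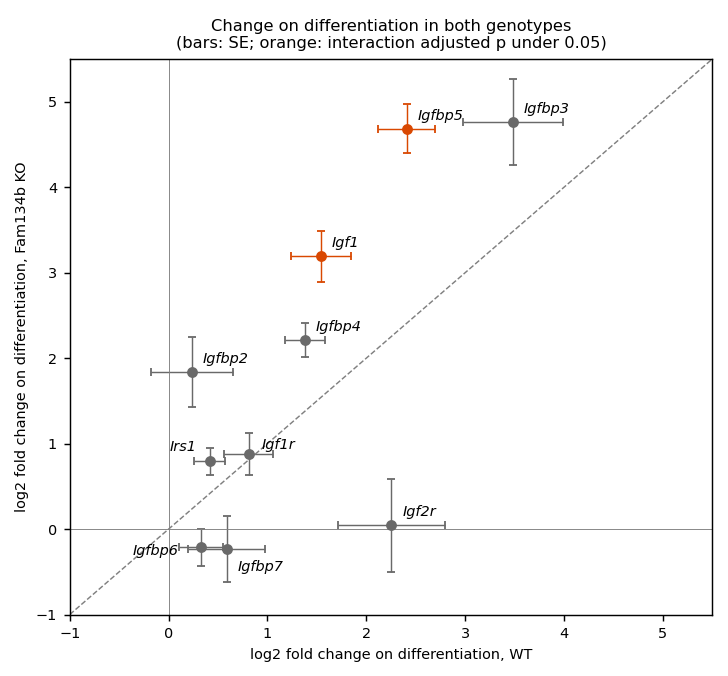
Log2 fold change from myoblasts to myotubes in WT (x axis) and in Fam134b KO cells (y axis) for the 10 IGF genes, with bars of 1 SE in each direction; the dashed line marks equal change. Igfbp5 (2.41 and 4.68) and Igf1 (1.54 and 3.19), in orange, lie above the line and passed the test of the difference.

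Since Igfbp5, Igf1 and Igfbp4 were the genes with the largest differences between KO and WT myotubes that held in all alternatives, their promoters are shown. Each run covers 250 bases before and 50 after a transcription start site of RefSeq (GRCm38.p6), read 5′ to 3′ on the strand of the gene, and capitals mark E-boxes, the letters CANNTG that bHLH factors such as MyoD and myogenin bind.
Igfbp5, chr1:72874816-72875115, minus strand: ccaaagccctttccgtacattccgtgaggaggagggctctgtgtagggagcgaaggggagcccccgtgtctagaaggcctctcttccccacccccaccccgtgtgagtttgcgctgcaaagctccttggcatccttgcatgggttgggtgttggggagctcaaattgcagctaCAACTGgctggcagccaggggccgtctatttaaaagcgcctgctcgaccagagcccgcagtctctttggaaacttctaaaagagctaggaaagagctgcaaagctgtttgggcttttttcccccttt
Igf1, chr10:87860861-87861160, plus strand: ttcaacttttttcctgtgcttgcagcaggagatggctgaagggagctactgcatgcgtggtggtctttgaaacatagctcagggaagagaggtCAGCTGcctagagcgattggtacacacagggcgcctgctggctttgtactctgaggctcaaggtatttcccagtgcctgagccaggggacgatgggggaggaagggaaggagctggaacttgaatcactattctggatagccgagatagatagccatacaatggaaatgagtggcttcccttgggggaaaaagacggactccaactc
Igfbp4, chr11:99040994-99041293, plus strand: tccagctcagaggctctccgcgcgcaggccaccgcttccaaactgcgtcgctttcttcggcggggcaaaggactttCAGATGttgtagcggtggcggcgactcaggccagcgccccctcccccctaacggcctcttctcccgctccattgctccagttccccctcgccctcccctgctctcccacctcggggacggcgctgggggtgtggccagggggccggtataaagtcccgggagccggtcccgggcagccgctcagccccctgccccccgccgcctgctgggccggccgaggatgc
The E-box began 77 bases before the start site in Igfbp5, 157 in Igf1 and 174 in Igfbp4. The Igf1 window lies inside the gene span given above, which begins at base 87858265, and the bases before that start were not searched. Windows were found for all 10 genes, 11 in number because Igfbp2 has a pair of them. CANNTG, a pattern that reads alike on both strands, was present in 8 of the 10 genes, absent from Igf1r and Igfbp7, and present in 72.3% of 32851 mouse promoter windows of this length. The form CAGCTG, itself a CANNTG match, occurred only in Igf1 and in 16.3% of all windows. Searched on both strands, TATAAA occurred in Igfbp4 and Igfbp6 and in 13.6% of all windows, and the forkhead motif GTAAACA in 0 of the 10 genes and in 3.65% of all windows. These matches describe the letters in the windows and were not tested for binding.

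Other genes of the IGF axis were taken from a list of 20 ligands, receptors, adaptors, binding proteins and proteases, of which 9 reached the minimum for testing. In WT cells 5 of these 9 were higher and 2 lower in myotubes, where 23.0% of all genes were called, and in KO cells 4 were higher and 1 lower, where 33.4% were. KO against WT gave 2 higher and 4 lower in myoblasts (15.8% of all genes) and 3 higher and 4 lower in myotubes (23.4%), and 1 passed the interaction test (3.45%). Stc1 and Stc2, both among the lower genes, reached the minimum for testing in 6 samples each, of which 5 for Stc1 and all for Stc2 were WT samples, so these calls and counts depend on the group in which the genes were high. Igf2, the second IGF ligand, had normalized counts of 31.4, 22.2, 28.0 and 21.4 in WT myoblasts, 403, 188, 274 and 241 in WT myotubes, 0, 0.830, 0 and 0 in KO myoblasts, and 76.5, 49.6, 84.6 and 63.9 in KO myotubes. KO myoblasts held 1 Igf2 read against 109 in WT myoblasts, a level 121 times lower after scaling for depth (95% counting interval 21.2 to 4812). In myotubes the Igf2 log2 fold change of KO against WT was −1.97 ± 0.30 (SE, limma adjusted p = 6.83e-05), and the change on differentiation exceeded that of WT by 2.54 ± 0.42 (adjusted p = 8.60e-04). Igf1 and Igf2 thus differed in sign between the genotypes: Igf1 was higher and Igf2 lower in KO cells.

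**Figure D4:**
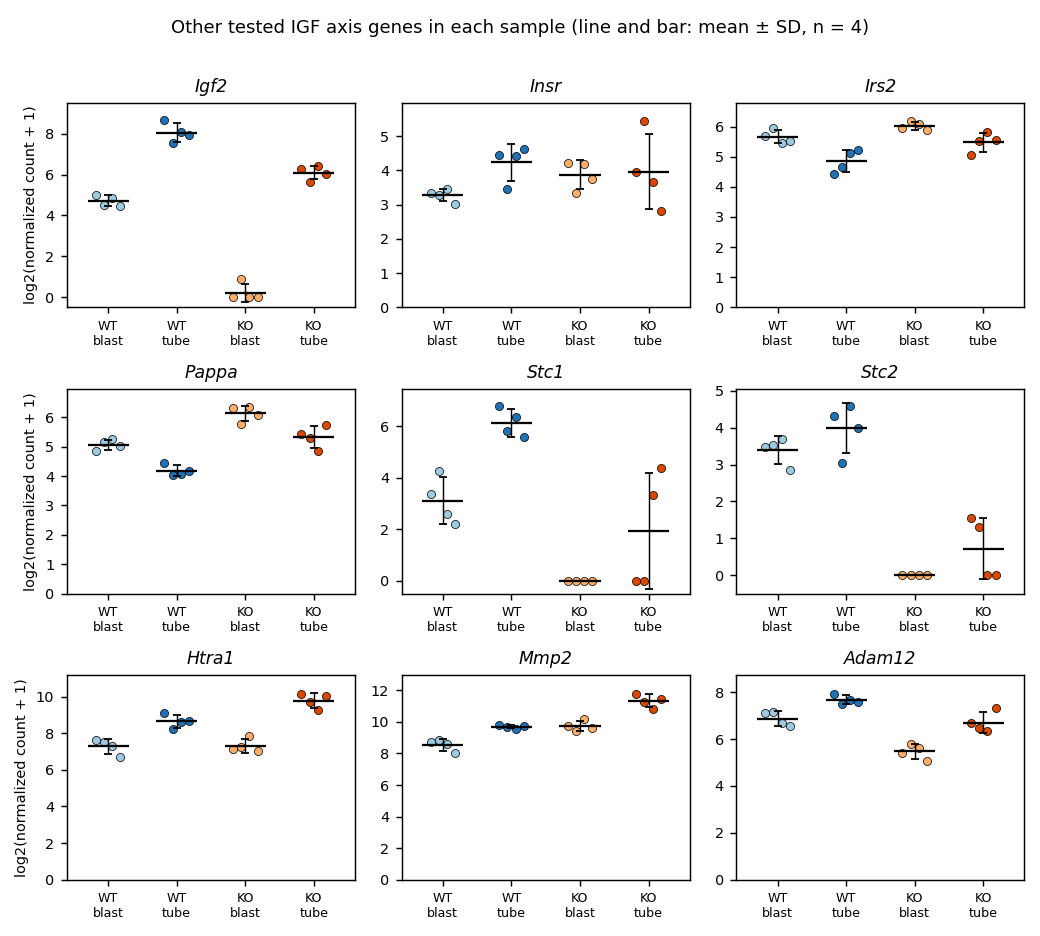
Log2(normalized count + 1) (y axis) of the 9 other tested IGF axis genes, 1 panel per gene, in the 4 samples of each group (x axis); points are samples, lines are means and bars SD (n = 4). Igf2, Stc1 and Stc2 are at or near 0 in KO myoblasts, and Mmp2 and Pappa are higher in KO than in WT samples at both stages.

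The proteases that act on IGF binding proteins and their inhibitors also differed. Pappa, which encodes PAPP-A, was higher in KO cells by 1.06 ± 0.24 on the log2 scale in myoblasts (SE, limma adjusted p = 0.00340) and 1.15 ± 0.24 in myotubes (adjusted p = 0.00153), and it fell on differentiation in WT (−0.89, 0.0112) and KO cells (−0.80, 0.0145). Stc1 and Stc2 encode stanniocalcins, which inhibit PAPP-A. Both had 0 reads in all 4 KO myoblast samples, against 38 reads of Stc1 and 41 of Stc2 in WT myoblasts. With 3 reads over the group taken as the floor, they were 14.0-fold and 15.1-fold lower. The lower ends of the 95% counting intervals of these ratios were 10.9 and 11.8. In KO myotubes the normalized counts of Stc1 were 0, 0, 9.0 and 19.98 against 46.6 to 109 in WT myotubes (log2 −4.20 ± 0.76, limma adjusted p = 3.91e-04). Stc1 entered the test mainly through its WT samples, so this call depends on the group in which it was high. Stc2 had 3 reads in KO against 70 in WT myotubes, 17.8 times lower after scaling (95% counting interval 5.86 to 88.6). Stc1 rose in WT cells on differentiation (3.03 ± 0.76, limma adjusted p = 0.00650).

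Mmp2, a matrix metalloproteinase that can cut binding proteins, was higher in KO cells by 1.17 in myoblasts and 1.65 in myotubes (log2, limma adjusted p = 3.43e-04 and 1.12e-05) and rose on differentiation by 1.14 in WT and 1.62 in KO cells (5.30e-04 and 5.07e-06). The secreted serine protease gene Htra1 rose on differentiation by 1.36 in WT and 2.47 in KO cells (limma adjusted p = 3.24e-04 and 7.82e-08) and was higher in KO myotubes by 1.13 (0.00161). Adam12, a metalloprotease gene of regenerating muscle, was lower in KO myoblasts (−1.40, limma adjusted p = 9.61e-05) and myotubes (−0.97, 0.00344) and rose on differentiation in both genotypes (0.80 and 1.23, 0.0138 and 2.50e-04). Irs2, the adaptor related to Irs1, fell in WT cells (−0.80 ± 0.24, SE, limma adjusted p = 0.0188), and its KO value was −0.54 ± 0.24 (0.0834). Insr, the insulin receptor gene, was tested and passed in none of the comparisons.

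Downstream of the receptor, genes of both signalling cascades were examined. All 29 genes of a PI3K-Akt-mTOR list were tested, and 4 changed in WT differentiation (3 higher, 1 lower), 9 in KO differentiation (6 and 3), 6 between genotypes in myoblasts (2 and 4) and 7 in myotubes (2 and 5), where 23.0%, 33.4%, 15.8% and 23.4% of all genes were called. Of these, Inppl1, which encodes the lipid phosphatase SHIP2, rose by 1.23 ± 0.17 in WT and 1.67 ± 0.17 in KO cells (SE, log2, limma adjusted p = 2.92e-05 and 2.02e-07). Pik3r1, the regulatory subunit of PI3K, rose in KO cells (1.20 ± 0.18, limma adjusted p = 2.96e-05) and was higher in KO than in WT myotubes (1.26 ± 0.18, 3.53e-05). It was the only gene of the 29 that passed the interaction test (0.99 ± 0.26, limma adjusted p = 0.0330). That is 3.45% of the list, the same share as the 3.45% of all genes that passed. The catalytic subunit gene Pik3cb fell by 1.01 in WT and 1.03 in KO cells (log2, limma adjusted p = 0.0213 and 0.0125).

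Of 15 Ras-MAPK genes, all tested, 4 changed in WT differentiation (1 higher, 3 lower), 4 in KO differentiation (2 and 2), 1 between genotypes in myoblasts (higher) and 5 in myotubes (2 and 3). Gab1, a docking protein gene, was higher in KO than in WT myoblasts (1.18 ± 0.39, SE, log2, limma adjusted p = 0.0409). Nras fell by 0.65 in WT and 1.13 in KO cells (log2, limma adjusted p = 0.0280 and 2.53e-04) and was lower in KO than in WT myotubes (−0.87, 0.00418). Map2k1, which encodes the kinase MEK1, was lower in KO than in WT myotubes (−0.99 ± 0.34, limma adjusted p = 0.0398), with its lowest value, 38.0, in the shallowest sample. Shc1, an adaptor gene of the same list, passed the interaction test (1.10 ± 0.28, limma adjusted p = 0.0321). It was the only gene of the 15 to pass, 6.67% of the list, where 3.45% of all genes passed. The counts of the other 4 comparisons stand beside 23.0%, 33.4%, 15.8% and 23.4% of all genes called in them.

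For the 3 IGF genes with the widest range, the genes with the most similar pattern over the 4 group means were taken from the 10757 other genes tested. Likeness was the root mean square difference of log2 group means after each gene was centred on its own mean. Closest to Igfbp5 were Jsrp1, which encodes a protein of the junctional sarcoplasmic reticulum (0.137), the myosin light chain kinase family gene Mylk4 (0.241) and the muscle ubiquitin ligase gene Trim54 (0.250). Closest to Igfbp3, whose range was 4.80, were Tceal5 (0.270), the triadin gene Trdn (0.341) and the leiomodin gene Lmod2 (0.407). Closest to Igf1, with a range of 4.27, were the thrombospondin gene Thbs2 (0.188), the betaglycan gene Tgfbr3 (0.262) and the collagen VI gene Col6a3 (0.309). Only 4 points enter each distance. In KO myoblasts Mylk4 and Lmod2 had no reads, and the log2 means of Trim54 (0.45), Tceal5 (0.75) and Igfbp3 itself (0.88) were also near the floor of 0, so the low point of these genes, and with it the range of Igfbp3, rests on few or no reads.

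**Figure D5:**
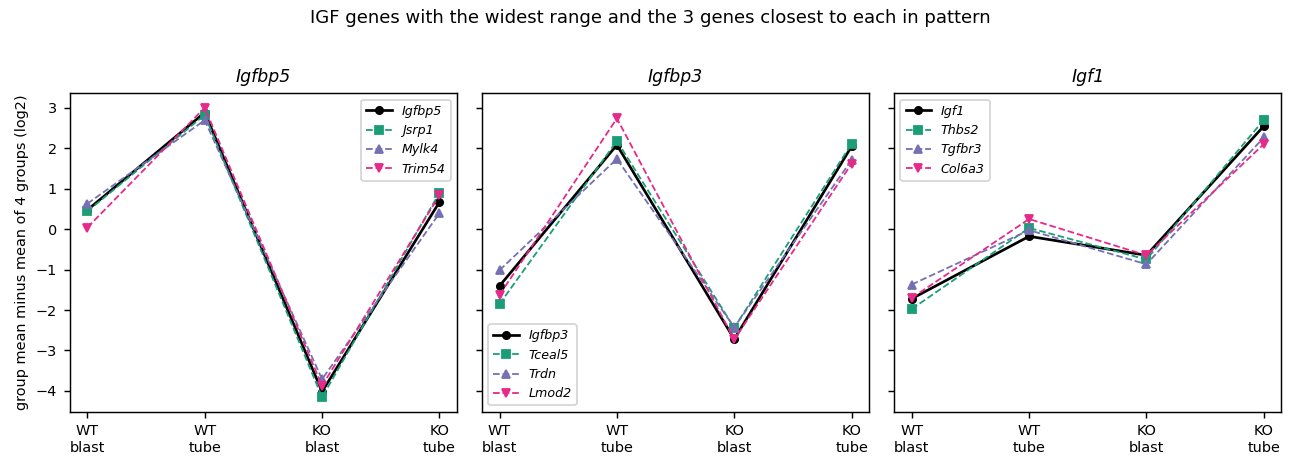
Group means of log2(normalized count + 1), centred on the mean of the 4 groups (y axis), for Igfbp5, Igfbp3 and Igf1 (black) and the 3 genes closest to each; lines join groups (x axis) only to guide the eye. Igfbp5 and its closest genes are lowest in KO myoblasts and highest in WT myotubes, and Igf1 and its closest genes are highest in KO myotubes.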

How the data were processed

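Gene expression was measured as mRNA in 16 C2C12 samples, grouped by genotype and stage from the sample titles. A separate genotype label reads unknown for every sample. Libraries were made from 125 ng of total RNA and sequenced from a single end over 100 cycles. According to the methods and the submitters' processing notes, the authors trimmed reads with bbduk, removed ribosomal and phiX reads, aligned with STAR 2.6.0a to mm10 and counted genes with HTSeq. The tool used for normalization, and whether counting used strand, are not given in the sources used here. Each deposited value is on a log2 scale, for which the authors had scaled the gene count by a factor per sample and added 1. The scale was recognised from the numbers themselves, since 100% of the 208843 values above 0 gave a multiple of the size of 1 read within 0.05 reads.

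Genes that reached a normalized count of 10 in 4 samples or more, 10767 in all, were tested on the log2 values (pseudocount 1) with limma 3.58.1 in R 4.3.3, using lmFit, contrasts.fit and trended eBayes on 4 group means without covariates. The threshold was an adjusted p of 0.05 by Benjamini-Hochberg over all genes tested. Fold changes on this scale understate those of low genes. All groups share 1 spread per gene. The procedure was tested on simulated counts with means and spread taken from the WT myoblasts. That test does not cover the wider spread of the KO myotubes. Exact two-sided permutation tests compared 4 with 4 samples, for which 0.0286 is the smallest p. Read ratios and floors (3 reads) carry counting error only. Positions came from GENCODE M21 (GRCm38), the same assembly as mm10, and promoters from RefSeq (GRCm38.p6).

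The genes and lists were chosen with earlier results of these data known. All 10 IGF genes were named, as were the axis genes called in at least 1 comparison, the 3 called genes with the largest log2 fold change of each downstream list, and the 3 closest patterns. Shc1, Insr and Airn, Gm9747 and Polr2b were named outside that rule. Markers of 7 cell types were summed, and of the myotube list Mymk and Mymx were not used here. The settings tried in turn were a pseudocount of 0.5 or 5, a minimum of 50 or none, equal totals, quantile or median-ratio scaling, sample weights, limma voom on recovered reads, the replicate number as a block, a threshold of 0.01, a fit to the 8 samples of a comparison, and each sample left out. Leaving out both shallow samples was chosen after seeing the data. No other count model was run on the recovered reads.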

Additional observations from a re-analysis of the deposited data

Results flagged for a closer look

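The change on differentiation differed between the genotypes for 2 of the 10 IGF genes by the interaction test. It was larger in Fam134b KO than in WT cells by 1.65 (log2, limma adjusted p = 0.0322) for Igf1 and by 2.27 (adjusted p = 0.00180) for Igfbp5. The Igf1 call was lost in several alternatives given above, and the Igfbp5 call in none. In 3 of the 44 groups of 4 samples examined, a sample lay far from the other 3, with a gap over the range above Dixon's 95% critical value for 4 samples. These were Irs1 in replicate 3 of the WT myoblasts (0.880), Irs1 in replicate 2 of the Fam134b KO myoblasts (0.848) and Igfbp4 in the same KO myoblast sample (0.964). Chance marks about 1 in 20 groups in this way. Irs1 and Igfbp4 kept their calls between the genotypes without either of these samples.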

How the results depend on the processing

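The 28 called log2 fold changes, 26 of IGF genes and 2 of Fam134b, kept direction and call in 343 of 357 values from alternatives other than leaving out 1 sample, and in 428 of 448 values with 1 sample left out. In the rest they fell short of the threshold, and none changed sign. The number of IGF genes passing the interaction test was 1 with no filter, with limma voom and at an adjusted p under 0.01, and 1 to 3 with 1 sample left out. Values that changed sign were all uncalled. For KO against WT myoblasts, Igfbp6 was 0.0342 with equal totals, 0.00221 with quantile normalization and 0.0666 with sample weights, and Igf1r was 3.39e-04 with sample weights. For KO against WT myotubes, Igfbp3 was 0.0534 with quantile normalization and 0.0486 with limma voom, and 0.16 without the 2 shallow samples. The Igf1r interaction was −0.18 with sample weights and −0.0704 without the shallow samples, and the Igfbp7 change in KO differentiation was 0.47 without them. With 1 sample left out, log2 values ranged from −0.31 to 0.0899 for Igf2r, −0.11 to 0.15 for Igfbp6 and −0.31 to 0.0104 for Igfbp7 between genotypes in myoblasts. They ranged from −0.28 to 0.34 for Igfbp3 and −0.29 to 0.00813 for Igf1r between genotypes in myotubes, from −0.38 to 0.66 for Igf2r and −0.58 to 0.30 for Igfbp7 in KO differentiation, and from −0.12 to 0.28 for the Igf1r interaction. The cause was not tested. At a minimum of 50, 8 of the 10 genes were tested, and the interaction was not run with only the 8 samples compared. Replicate numbers did not pair the samples: deviations of same-numbered samples correlated with a mean r of 0.0330 over 24 pairs (−0.223 to 0.369), and 4 of 16 samples correlated best with their own number. With the number as a replicate block, the counts of IGF genes were 6, 7, 5, 7 and 2 and those of all genes 2495, 3628, 1678, 2513 and 358, in the order of the report. Igfbp7 between genotypes in myotubes then passed (limma adjusted p = 0.0273). Depth limits Igf1, Igf2r, Igfbp2 and Igfbp3 in myoblasts, where single samples held 0 to 75 reads. It also limits Igf2r (1 to 28 reads), Igfbp2 (8 to 24) and Igfbp3 (11 to 73) in KO myotubes.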

Other observations

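Among the 11 IGF axis genes that were not tested, Grb14, which encodes an adaptor that inhibits the insulin receptor, was detected mainly in Fam134b KO samples. It was chosen here after its values were seen. Its reads numbered 8, 12, 4 and 9 in KO myoblasts against 0, 1, 1 and 0 in WT myoblasts, a ratio of 14.9 after scaling for depth (95% counting interval 3.81 to 128). In myotubes they numbered 16, 13, 8 and 1 in KO samples against 0, 0, 3 and 0 in WT samples, a ratio of 16.6 (5.26 to 83.9). The KO sample with 1 read is the shallowest library. These intervals cover counting error only, and the gene had no test across replicates.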
